A study of Mus musculus with 8 samples.

Results

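Oxidative phosphorylation is carried out by 5 protein complexes of the inner mitochondrial membrane, most of whose subunits are encoded in the nucleus. The nuclear genes of complexes I to V were described here across RNA immunoprecipitation (RIP) libraries of mouse brain. Members were the protein-coding mouse genes whose RefSeq symbols start with the subunit names of complex I (Ndufa, Ndufb, Ndufc, Ndufs, Ndufv), complex II (Sdha to Sdhd), complex III (Uqcr), complex IV (Cox4 to Cox8) or complex V (Atp5). Pseudogenes were left out. The names cover 96 genes, and 95 of them were found among the 55401 genes of the count table: 46 of complex I, with 8 assembly factors among them, 4 of complex II, 8 of complex III, 20 of complex IV and 17 of complex V. The remaining one, Ndufb4b, was not analysed here. Ndufa4 and its paralog Ndufa4l2 are grouped with complex IV.

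In RIP an antibody pulls its target protein out of lysed tissue, and RNA attached to that protein is purified and sequenced. The 8 libraries were made from total RNA of C57BL/6 tissue labelled hippocampus. They comprised 3 RIP libraries with an antibody against CaMKIIβ, a subunit of the calcium/calmodulin-dependent protein kinase II of synapses, 3 RIP libraries with control IgG, and 2 Input libraries that were not immunoprecipitated. The series set out to find long noncoding RNAs that CaMKIIβ binds, and the labels used here give a strain but no age, treatment or modified allele.

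Complexes I, III and IV pass electrons from NADH and ubiquinol to oxygen and pump protons, complex II feeds in electrons from succinate, and complex V, the ATP synthase, uses the proton gradient to make ATP. Neurons depend on this pathway for ion pumping and synaptic transmission. Nuclear respiratory factor 1 (NRF-1) is a transcription factor known to bind promoters of many of these genes.

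Total counts ranged from 17273957 to 28138289 per library. CaMKIIβ RIP replicate 2 stood apart, with the highest level of its group for 45 of 92 members (48.9%, against 31.3% of all genes), among them Sdhb and Sdhd, and with 0 counts for Cox6a2, Cox7a1 and Atp5k. Of the Input libraries, replicate 2 held the higher level for 74 of 92 members (80.4%, against 49.3% of all genes). A list of 14 cerebellar markers summed to 4683 to 4798 CPM (counts scaled to a common library size) in the Input libraries, against 1243 to 1259 CPM for 13 hippocampal markers, all of which were detected. The labels do not say whether replicates came from separate animals, so p-values measure only the spread between these libraries, which may be technical, and 2 Input libraries limit the precision.

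Promoter stretches of 4 members are shown because they hold the NRF-1 motif and belong to genes with different calls against Input. Atp5h was called higher in IgG RIP. That call was lost without IgG RIP replicate 1 or 3 or either Input library, and with library size alone as the scale. Ndufs5 was not called, and Ndufab1 and Ndufaf4 were called lower in both RIP groups. Each stretch runs 5′ to 3′ on the strand of the gene, from 194 to 45 bases before its RefSeq start on GRCm38.p6. Capitals mark the NRF-1 motif as searched here: GCGC, any 2 bases, and GCGC again, a pattern that matches on both strands alike. The stretches lie at chr11:115419964-115420113 (minus strand) for Atp5h, chr4:123718231-123718380 (minus) for Ndufs5, chr7:122101893-122102042 (minus) for Ndufab1 and chr4:24897889-24898038 (plus) for Ndufaf4.
Atp5h: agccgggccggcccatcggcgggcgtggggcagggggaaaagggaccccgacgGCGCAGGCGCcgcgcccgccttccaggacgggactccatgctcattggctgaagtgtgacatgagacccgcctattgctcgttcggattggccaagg
Ndufs5: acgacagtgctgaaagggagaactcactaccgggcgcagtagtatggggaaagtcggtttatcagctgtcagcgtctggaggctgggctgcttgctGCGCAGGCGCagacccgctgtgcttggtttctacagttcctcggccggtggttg
Ndufab1: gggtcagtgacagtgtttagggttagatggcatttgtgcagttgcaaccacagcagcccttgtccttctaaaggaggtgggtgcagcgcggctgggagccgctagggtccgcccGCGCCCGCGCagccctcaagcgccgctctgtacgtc
Ndufaf4: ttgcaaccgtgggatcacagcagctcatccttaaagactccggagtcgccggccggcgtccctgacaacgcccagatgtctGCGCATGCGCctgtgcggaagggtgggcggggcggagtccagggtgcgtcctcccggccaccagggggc
Windows from 250 bases before to 50 after a RefSeq start were searched for 78 of the members. The NRF-1 motif was found for 21 of these 78 genes (26.9%), against 6.997% of all 27025 genes with a window. A YY1 motif of 11 letters was found on either strand for 5 (6.41%, against 0.755%). CCGGAAGT, an ETS site, was found on either strand for 5 (6.41%, against 4.31%), and CCAAT, likewise on either strand, for 34 (43.6%, against 41.1%). The windows of members were richer in G and C than those of all genes, with medians of 58.3% and 52.7%, and whether this accounts for the motif shares was not tested. Against Input, 4 of the 21 genes with the NRF-1 motif were called higher and 10 lower in IgG RIP, and of the 57 with a window but no such motif 3 were called higher, 34 lower and 18 neither, while Cox7b2 had too few counts to be tested and Ndufb4b was not analysed here. These matches are descriptions of letters in a window, not of binding.

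Summed transcript levels of complexes I and IV were lower in every RIP library than in either Input library, and after TMM scaling those of complexes II, III and V were not. The 95 members together took 0.571% and 0.608% of all counts in the Input libraries and 0.454% to 0.562% in the RIP libraries. Levels below are CPM after TMM scaling over all 8 libraries. After this scaling a level is relative to the other genes of a library and is not a share of all counts. A lower level in RIP means that less of an RNA was recovered, relative to other RNAs, than Input held. Amounts per cell and numbers of cells of a type cannot be read from it. Summed complex I was at 1314 and 1502 CPM in Input, 1072, 1204 and 1132 CPM in CaMKIIβ RIP, and 1093, 1004 and 1077 CPM in IgG RIP. Summed complex IV was at 986 and 1078 CPM in Input, 757, 894 and 781 CPM in CaMKIIβ RIP, and 727, 681 and 716 CPM in IgG RIP. The mean in CaMKIIβ RIP and IgG RIP was 0.807 and 0.752 of Input for complex I and 0.786 and 0.686 for complex IV. The ratios were 1.06 and 1.03 for complex II, 0.973 and 0.928 for complex III, and 1.10 and 1.02 for complex V. For complexes II, III and V the side of Input depended on the scale in some libraries. After TMM scaling complex III was at 490 and 500 CPM in Input, and CaMKIIβ RIP replicate 2 alone lay above it, at 522 CPM. As shares of all counts, without TMM, complex III stood at 0.0534% and 0.0546% in Input and 0.0429% to 0.0521% in the 6 RIP libraries, all below Input. Complex II stood at 0.0451% and 0.0463% in Input and 0.0407% to 0.0429% in IgG RIP, and complex V at 0.222% and 0.226% in Input and 0.201% to 0.203% in IgG RIP. In CaMKIIβ RIP replicates 1 to 3, complex II stood at 0.0433%, 0.0461% and 0.0409%, and complex V at 0.211%, 0.254% and 0.194%. Replicate 2 thus lay within Input for complex II and above it for complex V. These sums were not tested. The summed 13 mitochondrially encoded mRNAs of the same complexes were at 0.400 and 0.579 of Input. That sum was mainly COX1, at 9201 of 13814 CPM in Input, which fell least of those tested in IgG RIP (log2 fold change -0.38). COX2, COX3, ATP6, ATP8, ND3 and ND4L were at only 0.142 to 8.33 CPM in Input, so the ratios do not describe each mRNA.

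**Figure D1:**
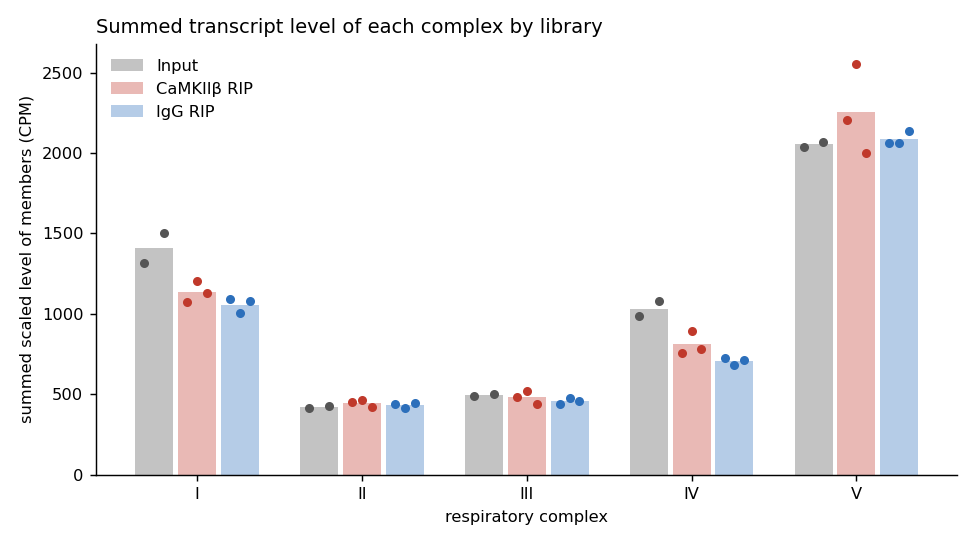
Summed level of the members of each respiratory complex (CPM) in Input (grey), CaMKIIβ RIP (red) and IgG RIP (blue). Bars are group means and points are libraries; for complexes I and IV all 6 RIP libraries lay below both Input libraries, and for complex V CaMKIIβ RIP replicate 2 was the highest at 2550 CPM.

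Per kilobase of exon, the most abundant member in Input was Cox8a of complex IV at 276 CPM per kilobase. Atp5b, the catalytic beta subunit of complex V, followed at 170. The highest members of the other complexes were Sdha at 67.5, Uqcr10 at 63.3 and Ndufc2 at 44.6 CPM per kilobase. At the other end, Ndufb4c of complex I was at 0.507, and Cox8c of complex IV had 0 counts in all 8 libraries, which allows up to 3 counts in a library.

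The comparison of CaMKIIβ RIP with IgG RIP asks which RNAs came down with the kinase rather than with any antibody. No member differed past the threshold: 90 members had enough counts to be tested, and 0 had an adjusted p under 0.05 by edgeR's quasi-likelihood test (background 0% of 20566 genes), 0 by DESeq2 and 0 by limma-voom. The lowest adjusted p of a member was 0.982. At an unadjusted p under 0.05 stood 6 of the 90 members and 721 genes in all. The median log2 fold change of the members was 0.14, against -0.02 for all genes, and without CaMKIIβ RIP replicate 2 these were 0.06 and 0.00. With a trend on exon length removed they were 0.45 and 0.15. In that fit 20 members and 1257 genes in all had an unadjusted p under 0.05, with 0 past the threshold. For 64 of 90 members (71.1%) the 95% interval of the difference lay within 2-fold in both directions, and for all genes this share was 52.0%. The libraries did not overlap for 6 members with CaMKIIβ RIP above (background 4.58%) and for 1 with it below (background 7.32%).

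The member with the highest and the member with the lowest change in each complex are described here, among members whose mean log2 CPM reached 1. Below that level, Ndufa4l2 (1.57 ± 1.01) and Cox6a2 (-0.56 ± 1.24) of complex IV and Atp5k (-0.46 ± 1.22) of complex V had larger changes with wide errors. Cox6b2 of complex IV, also below that level, had a log2 fold change of 1.02. Ndufb6, a membrane-arm subunit of complex I, was at 10.5 and 14.9 CPM in Input, 4.22, 6.85 and 8.28 CPM in CaMKIIβ RIP, and 3.82, 2.73 and 2.88 CPM in IgG RIP. Its log2 fold change between the antibodies was 1.05 ± 0.37 (SE), the CaMKIIβ RIP libraries lay above the IgG RIP libraries, and 39.0% of its exon bases overlap exons of another gene. Cox6a1, an accessory subunit of cytochrome c oxidase, was at 35.5 and 47.4 CPM in Input, 22.6, 52.8 and 40.9 CPM in CaMKIIβ RIP, and 21.9, 20.1 and 25.3 CPM in IgG RIP. Its log2 fold change was 0.80 ± 0.27 (SE), and CaMKIIβ RIP replicate 1 lay among the IgG RIP libraries. Uqcr10, a small subunit of complex III, had a log2 fold change of 0.67 ± 0.24 (SE), and Atp5mpl, a small proteolipid subunit of complex V, a log2 fold change of 0.75 ± 0.25 (SE). For both, the 3 CaMKIIβ RIP libraries lay above the 3 IgG RIP libraries. Sdhd, a membrane anchor of complex II, was at 33.4 and 43.1 CPM in Input, 17.4, 50.04 and 25.1 CPM in CaMKIIβ RIP, and 21.5, 19.3 and 20.4 CPM in IgG RIP. Its log2 fold change was 0.61 ± 0.33 (SE), and CaMKIIβ RIP replicate 2 alone lay above the others of its group and above Input. At the low end of the same members stood Uqcrb of complex III (-0.45 ± 0.25), Ndufv3 of complex I (-0.39 ± 0.20), Atp5j of complex V (-0.36 ± 0.20), Cox4i1 of complex IV (-0.06 ± 0.11) and Sdhc of complex II (-0.06 ± 0.16), all log2 fold changes ± SE. None of these 10 differences passed the threshold.

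**Figure D2:**
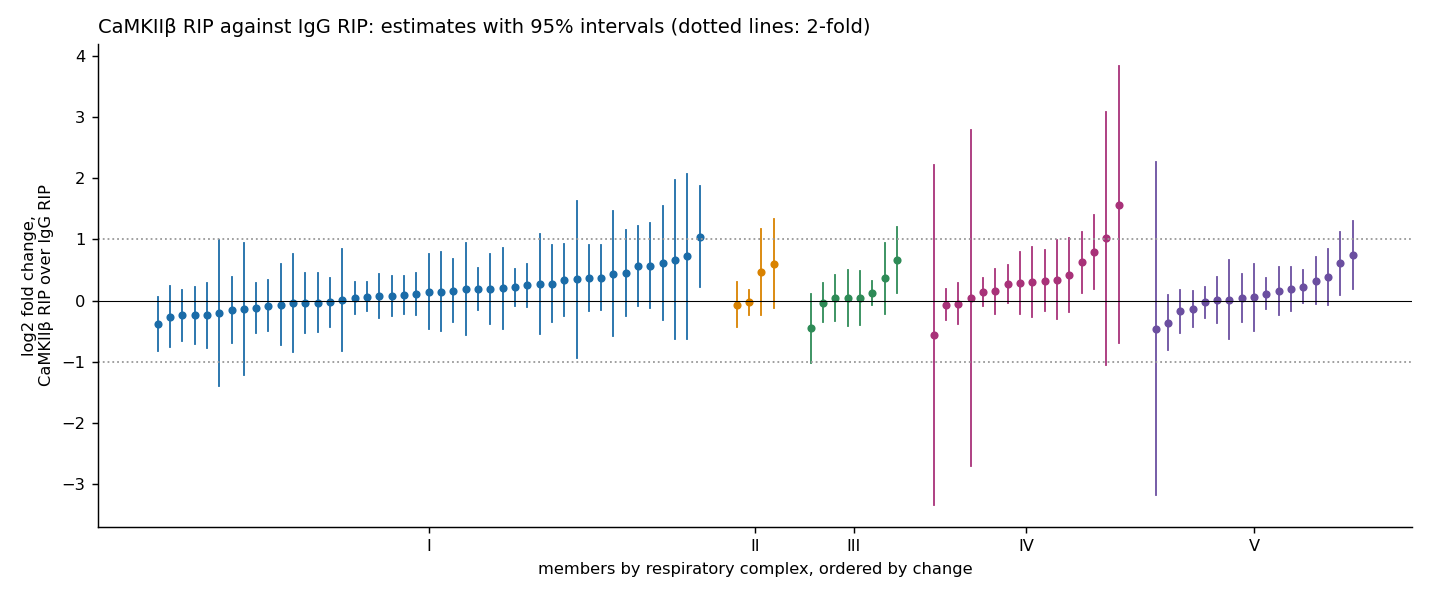
Log2 fold change of CaMKIIβ RIP over IgG RIP for the 90 tested members, ordered by change within complexes I to V. Points are estimates and lines 95% intervals; the dotted lines mark 2-fold, and the intervals of 64 members lie between them.

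Against Input, more members were lower than higher in both RIP groups. In CaMKIIβ RIP, 12 of 90 tested members (13.3%) were lower past the threshold (background 3.4% of 22095 genes) and 2 (2.22%) were higher (background 5.06%), by edgeR's quasi-likelihood test with Benjamini-Hochberg adjustment over all genes. In IgG RIP, 49 of 92 tested members (53.3%) were lower (background 18.7% of 22342 genes) and 9 (9.78%) were higher (background 20.1%). Changes are given below as log2 fold changes ± SE, and members named as risen or fallen passed that test. The 2 comparisons share the Input libraries, so their values are given side by side and are not independent. All CaMKIIβ RIP libraries lay below both Input libraries for 41 members (background 28.6%) and above both for 5 (background 18.9%), and all IgG RIP libraries lay below for 61 (background 33.7%) and above for 9 (background 26.8%). The median log2 fold change of the members was -0.35 in CaMKIIβ RIP, against -0.12 for all genes, but 0.26 against 0.23 once a trend on exon length was removed. In IgG RIP it was -0.53 against -0.02, and -0.31 against 0.08 without the length trend.

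The counts in CaMKIIβ RIP depended on single libraries. Calls in CaMKIIβ RIP given below carry the same limit. Without CaMKIIβ RIP replicate 1, 0 members were higher and 0 lower by edgeR's quasi-likelihood test (0 of all genes passed, and 22 members and 4607 genes had an unadjusted p under 0.05). Without replicate 2 there were 5 and 25, against 11.3% higher and 7.39% lower of all genes. Without replicate 3 there were 2 and 9, against 4.79% and 3.99% of all genes. Without Input replicate 1 there were 0 higher and 16 lower, against 1.93% and 1.6% of all genes. Without Input replicate 2 there were 0 and 2, against 1.09% and 0.611% of all genes. In IgG RIP, leaving out 1 library gave 6 to 11 members higher, with 6 without either Input library, and 41 to 52 lower. Of all genes, 13.3% to 21.3% were higher and 10.6% to 19.8% lower in these fits. With library size alone as the scale, 3 members (Uqcrc1, Cox7a2l and Atp5a1) were higher and 65 lower in IgG RIP, against 12.1% and 28.4% of all genes. The median of all genes moved by -0.23 under that scale. A single fit of all 8 libraries gave 2 and 33, against 8.75% and 7.15% of all genes. Cell type markers moved with the same comparisons: 5 astrocyte markers summed to 3971 to 4063 CPM in Input, 7839 to 9238 CPM in CaMKIIβ RIP and 8676 to 9936 CPM in IgG RIP, and 6 oligodendrocyte markers to 5703 to 5722, 9895 to 10273 and 9388 to 9994 CPM. All of these markers were detected. A list of 7 neuronal markers summed to 3843 to 4018 CPM in Input, 3511 to 3908 in CaMKIIβ RIP and 3741 to 3908 in IgG RIP, but its genes did not move as one: in IgG RIP Rbfox3, Tubb3, Eno2 and Slc17a7 were higher and Snap25, Syt1 and Stmn2 lower. The part of these cell types in the members' differences was not tested.

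**Figure D3:**
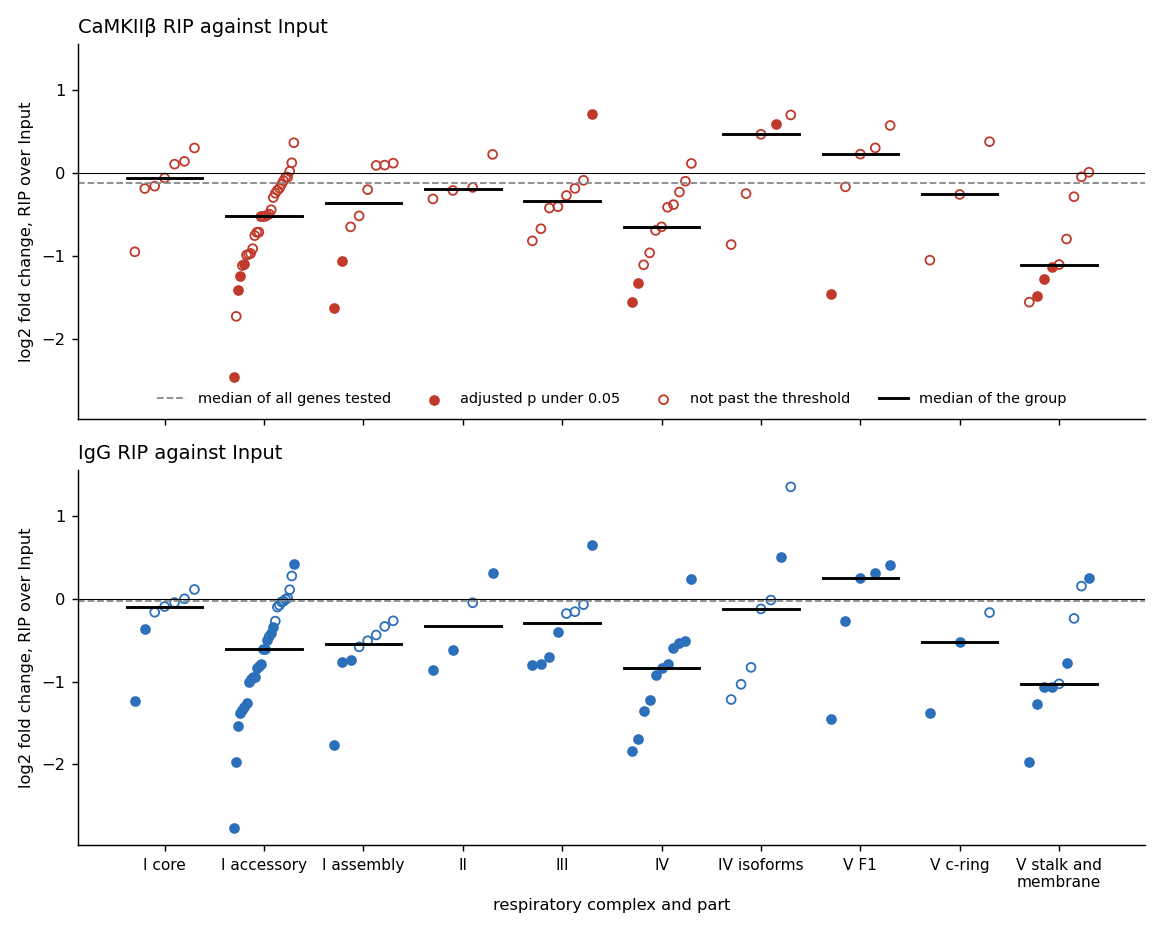
Log2 fold change of each tested member against Input, for CaMKIIβ RIP (top) and IgG RIP (bottom), by complex and part. Filled points passed an adjusted p of 0.05, short black bars are the medians of a part, and the dashed line is the median of all genes; in IgG RIP, 10 of 11 ubiquitous complex IV subunits were lower, and 3 of 5 F1 subunits of complex V were higher.

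Within complex I, accessory subunits made up most of the calls and also most of the members tested, 30 of 45. In IgG RIP 19 of 30 tested accessory subunits were lower and 1, Ndufb4, was higher, and 2 of 7 core subunits, Ndufs3 and Ndufs7, were lower. In CaMKIIβ RIP 4 accessory subunits were lower (Ndufab1, Ndufb1, Ndufb5 and Ndufs4), and 0 core subunits were called. These 4 were 13.3% of the accessory subunits tested, the same share as over all members. Core subunits hold the redox centres, while accessory subunits surround them and stabilise the complex. The median log2 fold change in IgG RIP was -0.09 for core subunits, and 0.03 once the exon length trend was removed. For accessory subunits it was -0.61, and -0.50 without the trend. Whether the parts differ was not tested.

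Ndufb1, a small membrane-arm subunit (chr12:101968090-101977068, minus strand), fell furthest of all members in both comparisons. It was at 8.46 and 20.1 CPM in Input, 1.82, 3.95 and 2.02 CPM in CaMKIIβ RIP, and 1.80, 2.96 and 1.38 CPM in IgG RIP. Its log2 fold change was -2.47 ± 0.50 (SE, adjusted p = 0.0288) in CaMKIIβ RIP, and its log2 fold change was -2.77 ± 0.33 (SE, adjusted p = 3.71e-06) in IgG RIP, which is 5.52-fold and 6.82-fold lower. Every RIP library lay below both Input libraries, which themselves differed more than the RIP libraries did, and the call in CaMKIIβ RIP was lost once the exon length trend was removed (adjusted p = 0.19). Ndufab1, the mitochondrial acyl carrier protein (chr7:122085403-122101886, minus strand), was at 43.1 and 46.2 CPM in Input, 17.8, 12.02 and 20.4 CPM in CaMKIIβ RIP, and 16.9, 16.8 and 18.5 CPM in IgG RIP. It fell by 1.41 ± 0.24 (adjusted p = 0.0170) in CaMKIIβ RIP and fell by 1.31 ± 0.11 (adjusted p = 5.48e-08) in IgG RIP, with all RIP libraries below Input. Ndufs4, an accessory subunit whose loss causes Leigh syndrome, was at 36.4 and 41.6 CPM in Input, 18.5, 16.95 and 13.96 CPM in CaMKIIβ RIP, and 21.6, 19.3 and 17.98 CPM in IgG RIP. It fell by 1.24 ± 0.20 (adjusted p = 0.0141) in CaMKIIβ RIP and fell by 0.94 ± 0.11 (adjusted p = 5.03e-06) in IgG RIP, again with no overlap between RIP and Input.

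Among the assembly factors, which build complex I and are not part of it, 3 of 8 were lower in IgG RIP (Ndufaf1, Ndufaf4 and Ndufaf5) and 2 in CaMKIIβ RIP (Ndufaf4 and Ndufaf5). Ndufaf4 (chr4:24898083-24905001, plus strand) was at 27.1 and 30.2 CPM in Input, 7.98, 7.49 and 12.3 CPM in CaMKIIβ RIP, and 11.9, 6.90 and 5.76 CPM in IgG RIP. It fell by 1.63 ± 0.27 (adjusted p = 0.0159) in CaMKIIβ RIP and fell by 1.76 ± 0.21 (adjusted p = 3.93e-06) in IgG RIP, and the RIP and Input libraries lay far apart. Ndufb6 and Ndufc1 passed in IgG RIP and not in CaMKIIβ RIP, a difference that was not tested. In IgG RIP Ndufb6 fell by 1.97 ± 0.22 (adjusted p = 1.70e-06), and Ndufc1, a small membrane-arm subunit, fell by 1.54 ± 0.22 (adjusted p = 2.91e-05). In CaMKIIβ RIP their values were -0.98 ± 0.36 and -1.73 ± 0.56, with adjusted p-values of 0.158 and 0.110. Ndufb4 was the member of complex I that was higher: it was at 19.9 and 22.6 CPM in Input, 30.7, 10.6 and 40.6 CPM in CaMKIIβ RIP, and 25.1, 27.0 and 30.1 CPM in IgG RIP, and rose by 0.42 ± 0.12 (adjusted p = 0.0102) in IgG RIP, a call lost without Input replicate 1 (adjusted p = 0.159) and with library size alone (0.218). CaMKIIβ RIP replicate 2 lay below both Input libraries and the other CaMKIIβ RIP libraries above them, and the change in that group was 0.37 ± 0.48 (adjusted p = 0.774).

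The 4 subunits of complex II, which is also succinate dehydrogenase of the citric acid cycle, were called in different directions in IgG RIP. Sdha, the flavoprotein that oxidises succinate, was at 283 and 274 CPM in Input, 354, 301 and 322 CPM in CaMKIIβ RIP, and 338, 323 and 341 CPM in IgG RIP. It rose by 0.32 ± 0.06 (adjusted p = 4.07e-04) in IgG RIP, and its change in CaMKIIβ RIP was 0.23 ± 0.11 (adjusted p = 0.302), with all 6 RIP libraries above both Input libraries. With library size alone as the scale its change in IgG RIP was 0.09 and the call was lost (adjusted p = 0.229). Sdhb, the iron-sulfur subunit, was at 54.7 and 55.2 CPM in Input, 36.7, 77.9 and 28.01 CPM in CaMKIIβ RIP, and 34.6, 35.1 and 33.7 CPM in IgG RIP. It fell by 0.62 ± 0.09 (adjusted p = 2.56e-05) in IgG RIP, while CaMKIIβ RIP replicate 2 lay above Input and the other libraries of that group below, for a change of -0.21 ± 0.39 (adjusted p = 0.856). Sdhd fell by 0.86 ± 0.12 (adjusted p = 2.24e-05) in IgG RIP, and its change in CaMKIIβ RIP was -0.31 ± 0.41 (adjusted p = 0.772). Sdhc, the other membrane anchor, was at 42.4 and 52.2 CPM in Input, 45.4, 34.1 and 46.2 CPM in CaMKIIβ RIP, and 44.9, 38.3 and 49.1 CPM in IgG RIP. RIP and Input overlapped for it, with changes of -0.17 ± 0.19 in CaMKIIβ RIP and -0.05 ± 0.11 in IgG RIP (adjusted p = 0.719 and 0.796).

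Complex III held the member that rose most past the threshold, Uqcrc1, a large matrix-side subunit (chr9:108936633-108949623, plus strand). Uqcrc1 was at 122 and 118 CPM in Input, 199.5, 201 and 189.8 CPM in CaMKIIβ RIP, and 172, 181 and 192 CPM in IgG RIP. It rose by 0.71 ± 0.11 (adjusted p = 0.0121) in CaMKIIβ RIP and rose by 0.65 ± 0.07 (adjusted p = 1.07e-06) in IgG RIP, and all RIP libraries lay above Input. In IgG RIP, 4 of 8 members of the complex were lower: Uqcrfs1, the Rieske iron-sulfur protein (-0.71 ± 0.11), Uqcrh, the hinge protein (-0.80 ± 0.14), Uqcr10 (-0.79 ± 0.12) and Uqcrq (-0.40 ± 0.12), with adjusted p-values of 5.51e-05, 2.28e-04, 3.49e-05 and 0.0106. The call for Uqcrq was lost without IgG RIP replicate 1 (adjusted p = 0.0615) and without Input replicate 1 (0.160). In CaMKIIβ RIP 0 were lower past the threshold. Uqcrfs1 was at 47.5 and 60.2 CPM in Input, 31.8, 61.3 and 28.9 CPM in CaMKIIβ RIP, and 32.3, 33.5 and 29.7 CPM in IgG RIP. The IgG RIP libraries lay below Input, and CaMKIIβ RIP replicate 2 lay above it.

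Most subunits of complex IV, cytochrome c oxidase, were lower in IgG RIP than in Input. Of its 11 ubiquitous nuclear subunits, all 11 passed the threshold in IgG RIP: 10 were lower (Cox5a, Cox5b, Cox6a1, Cox6b1, Cox6c, Cox7a2, Cox7b, Cox7c, Cox8a and Ndufa4), with log2 fold changes down to -1.84, and Cox4i1 was higher. In CaMKIIβ RIP, Cox5a and Cox7a2 were lower. Cox7a2 (chr9:79755361-79759878, minus strand) was at 40.3 and 62.8 CPM in Input, 11.6, 25.7 and 15.2 CPM in CaMKIIβ RIP, and 15.2, 11.4 and 15.1 CPM in IgG RIP. It fell by 1.56 ± 0.35 (adjusted p = 0.0375) in CaMKIIβ RIP and fell by 1.84 ± 0.16 (adjusted p = 1.40e-07) in IgG RIP, with every RIP library below Input. Cox5a, which sits on the matrix side (chr9:57521274-57532426, plus strand), was at 37.4 and 50.6 CPM in Input, 13.4, 24.3 and 14.8 CPM in CaMKIIβ RIP, and 10.3, 15.9 and 13.1 CPM in IgG RIP. It fell by 1.33 ± 0.29 (adjusted p = 0.0348) in CaMKIIβ RIP and fell by 1.69 ± 0.16 (adjusted p = 2.67e-07) in IgG RIP. Cox7b was at 66.99 and 76.9 CPM in Input, 27.7, 48.6 and 23.9 CPM in CaMKIIβ RIP, and 30.9, 26.9 and 23.9 CPM in IgG RIP, and it fell by 1.35 ± 0.11 (adjusted p = 5.36e-08) in IgG RIP, with all RIP libraries below Input. Ndufa4, first assigned to complex I and later found in complex IV, was at 60.9 and 78.9 CPM in Input, 27.7, 49.3 and 30.7 CPM in CaMKIIβ RIP, and 27.8, 25.2 and 33.3 CPM in IgG RIP. It fell by 1.23 ± 0.12 (adjusted p = 5.44e-07) in IgG RIP, and the change in CaMKIIβ RIP was -0.96 ± 0.26 (adjusted p = 0.0693). Both calls in CaMKIIβ RIP were lost once the exon length trend was removed (adjusted p = 0.569 for Cox7a2 and 0.410 for Cox5a).

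Cox4i1, the largest nuclear-encoded subunit, and Cox7a2l went the other way. Cox4i1 was at 187 and 194 CPM in Input, 235, 203 and 182 CPM in CaMKIIβ RIP, and 229, 203 and 222 CPM in IgG RIP. It rose by 0.24 ± 0.07 (adjusted p = 0.00793) in IgG RIP, and CaMKIIβ RIP overlapped with Input (0.12 ± 0.13, adjusted p = 0.727). The call in IgG RIP was lost without IgG RIP replicate 1 (adjusted p = 0.0603), without Input replicate 1 (0.100) and with library size alone as the scale (0.867). Cox7a2l, which joins complexes III and IV into supercomplexes (chr17:83501918-83517330, minus strand), was at 52.1 and 49.4 CPM in Input, 77.8, 76.4 and 74.8 CPM in CaMKIIβ RIP, and 70.8, 68.04 and 70.3 CPM in IgG RIP. It rose by 0.59 ± 0.13 (adjusted p = 0.0340) in CaMKIIβ RIP and rose by 0.51 ± 0.08 (adjusted p = 7.29e-05) in IgG RIP. All 6 RIP libraries lay above both Input libraries, and so its direction was opposite to that of its paralog Cox7a2; the difference between the paralogs was not tested.

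**Figure D4:**
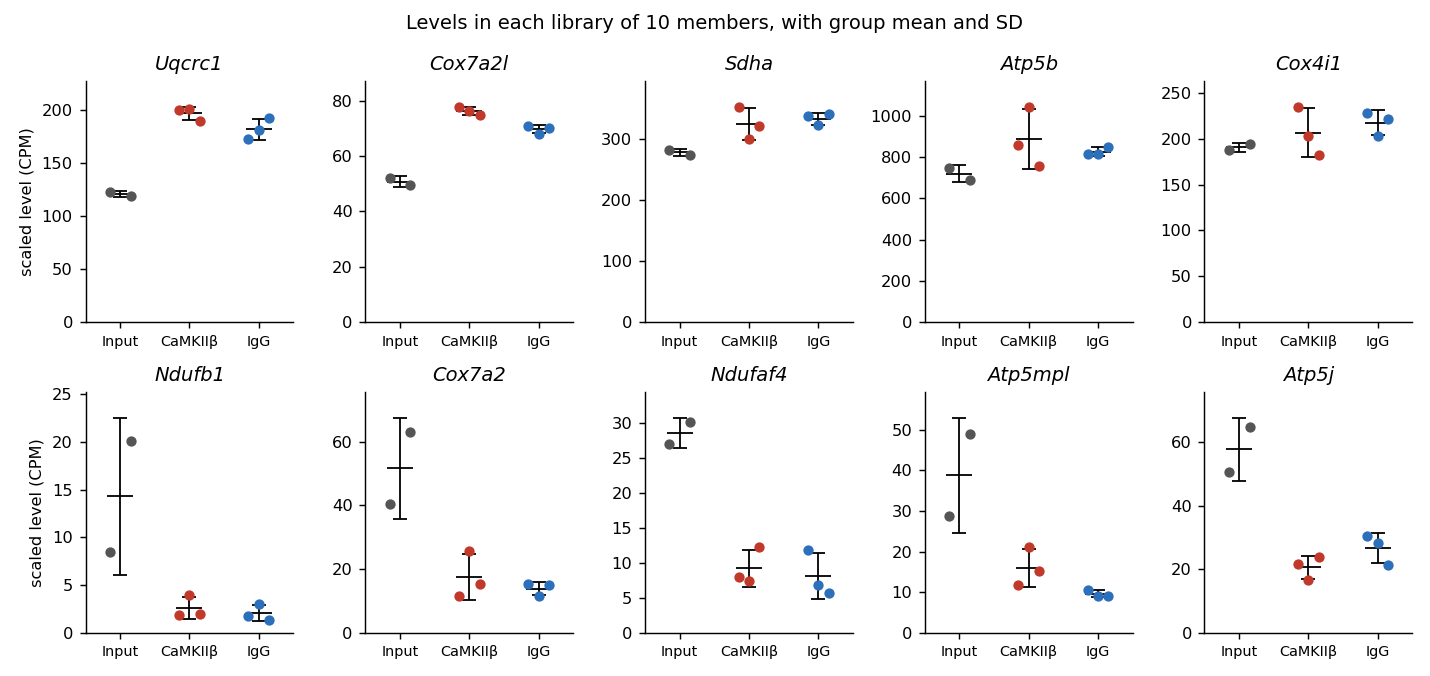
Level (CPM) of 10 members in each library of Input (grey), CaMKIIβ RIP (red) and IgG RIP (blue), with the group mean and SD in black. In the top row Uqcrc1, Cox7a2l, Sdha and Atp5b lay above Input in all 6 RIP libraries, and in the bottom row all 5 members lay below Input in all 6.

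Isoforms of complex IV known from muscle, lung or testis, and the paralog Ndufa4l2, were near the limit of detection. Cox7b2, Cox8b and Cox4i2 were below 1 CPM in all libraries, Cox8c had no count, and Cox6a2, Cox6b2, Cox7a1 and Ndufa4l2 reached at most 1.496, 1.97, 3.32 and 4.12 CPM. Of these 8, 6 were tested in IgG RIP against Input and 0 passed. Per kilobase of exon the ubiquitous forms stood far above them in Input: Cox8a was at 276 CPM per kilobase against 0.668 for Cox8b, Cox6b1 at 116 against 1.33 for Cox6b2, and Cox7b at 59.3 against 0.681 for Cox7b2. Cox8a, a small membrane-spanning subunit, was at 184 and 158 CPM in Input, 102, 209.5 and 125 CPM in CaMKIIβ RIP and 88.8, 99.3 and 97.8 CPM in IgG RIP. It fell by 0.79 ± 0.08 (adjusted p = 4.55e-07) in IgG RIP, and CaMKIIβ RIP replicate 2 lay above Input. Muscle markers, whose cells could carry such isoforms, were low: 10 skeletal and cardiac muscle markers summed to 54.6 to 54.8 CPM in Input and 79.8 to 101 CPM in the RIP libraries. Ttn alone had a mean of 37.4 CPM in Input. Smooth muscle and pericyte markers (11, with Ndufa4l2 among them) summed to 183 to 184 CPM in Input and 184 to 243 CPM in RIP. Parvalbumin interneuron markers (7) summed to 1822 to 1846 CPM in Input and 1875 to 1967 CPM in RIP.

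Members of complex V were called in both directions in IgG RIP. Of the 5 F1 subunits, which form the catalytic head and central stalk, 3 were higher in IgG RIP (Atp5a1, Atp5b and Atp5d) and 2 lower (Atp5c1 and Atp5e). Of the 9 subunits of the peripheral stalk and membrane part, 5 were lower (Atp5j, Atp5j2, Atp5l, Atp5md and Atp5mpl) and 1, Atp5h, was higher. In CaMKIIβ RIP, Atp5e, Atp5j, Atp5md and Atp5mpl were lower and 0 were higher. Atp5b was at 748 and 689.8 CPM in Input, 860.1, 1044 and 757 CPM in CaMKIIβ RIP, and 814, 813 and 851 CPM in IgG RIP. It rose by 0.25 ± 0.06 (adjusted p = 0.00255) in IgG RIP, and all RIP libraries lay above Input, though the change in CaMKIIβ RIP did not pass (0.31 ± 0.15, adjusted p = 0.284). Atp5a1, the alpha subunit of the same head, was at 476 and 429 CPM in Input, 640.0, 804 and 575 CPM in CaMKIIβ RIP, and 559, 577 and 603 CPM in IgG RIP. It rose by 0.41 ± 0.06 (adjusted p = 6.22e-05) in IgG RIP, with 0.58 ± 0.16 in CaMKIIβ RIP (adjusted p = 0.0670), and again no RIP library reached down to Input. Atp5d, the delta subunit of the central stalk, rose by 0.32 ± 0.08 (adjusted p = 0.00403) in IgG RIP, with 0.23 ± 0.15 in CaMKIIβ RIP (adjusted p = 0.453). The calls for Atp5b and Atp5d in IgG RIP were lost without Input replicate 2 (adjusted p = 0.100 and 0.165), and with library size alone as the scale their changes were 0.03 and 0.09 (adjusted p = 0.730 and 0.386). Atp5e, the epsilon subunit beside it, was at 15.2 and 32.8 CPM in Input, 10.4, 8.36 and 7.46 CPM in CaMKIIβ RIP, and 9.13, 7.92 and 8.38 CPM in IgG RIP. It fell by 1.46 ± 0.35 (adjusted p = 0.0458) in CaMKIIβ RIP and fell by 1.46 ± 0.22 (adjusted p = 5.76e-05) in IgG RIP, with all RIP libraries below both Input libraries, which differed from each other more than the RIP libraries did.

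Among the membrane subunits, Atp5mpl (chr12:111961375-111966977, minus strand) fell furthest in IgG RIP. Atp5mpl was at 28.8 and 48.9 CPM in Input, 11.8, 21.1 and 15.2 CPM in CaMKIIβ RIP, and 10.7, 9.17 and 9.01 CPM in IgG RIP. It fell by 1.28 ± 0.31 (adjusted p = 0.0490) in CaMKIIβ RIP and fell by 1.97 ± 0.18 (adjusted p = 1.71e-07) in IgG RIP, and the RIP libraries lay below Input. Atp5j, a peripheral stalk subunit, was at 50.8 and 64.9 CPM in Input, 21.7, 16.5 and 23.7 CPM in CaMKIIβ RIP, and 30.5, 28.3 and 21.3 CPM in IgG RIP. It fell by 1.48 ± 0.21 (adjusted p = 0.0102) in CaMKIIβ RIP and fell by 1.07 ± 0.14 (adjusted p = 7.85e-06) in IgG RIP. Atp5md, which takes part in dimers of the enzyme, was at 58.3 and 70.9 CPM in Input, 26.2, 31.2 and 30.5 CPM in CaMKIIβ RIP, and 23.8, 29.3 and 24.4 CPM in IgG RIP. It fell by 1.14 ± 0.17 (adjusted p = 0.0113) in CaMKIIβ RIP and fell by 1.27 ± 0.11 (adjusted p = 1.41e-07) in IgG RIP, with no overlap. Atp5h, whose promoter stretch is shown above, was at 115 and 112 CPM in Input, 138, 89.7 and 115 CPM in CaMKIIβ RIP, and 139.7, 113 and 138 CPM in IgG RIP. It rose by 0.25 ± 0.09 (adjusted p = 0.0275) in IgG RIP, but 1 IgG RIP library lay within the range of Input, and the call was lost without IgG RIP replicate 1 or 3 or either Input library (adjusted p from 0.0854 to 0.178) and with library size alone (0.847). In CaMKIIβ RIP its change was 0.01 ± 0.18 (adjusted p = 0.987).

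The c-ring of complex V, the rotor that protons turn, is made of subunit c, for which 3 genes encode the same mature protein. Atp5g1 was at 57.6 and 65.4 CPM in Input, 45.97, 65.6 and 42.6 CPM in CaMKIIβ RIP, and 40.98, 39.6 and 43.4 CPM in IgG RIP. Atp5g2 was at 24.1 and 26.8 CPM in Input, 24.8, 46.5 and 28.1 CPM in CaMKIIβ RIP, and 21.9, 21.1 and 22.6 CPM in IgG RIP. Atp5g3 was at 51.7 and 92.9 CPM in Input, 24.9, 36.3 and 43.4 CPM in CaMKIIβ RIP, and 24.6, 27.7 and 28.2 CPM in IgG RIP. The IgG RIP libraries lay below Input for all 3, but the changes ranged from -0.16 ± 0.11 for Atp5g2 (adjusted p = 0.282) through -0.52 ± 0.09 for Atp5g1 (1.93e-04) to -1.38 ± 0.16 for Atp5g3 (3.93e-06). In CaMKIIβ RIP the changes were 0.38 ± 0.29, -0.26 ± 0.21 and -1.05 ± 0.30, and none passed (adjusted p = 0.539, 0.577 and 0.0785). Of the 3, Atp5g3 also varied most between the Input libraries. Reads that fit more than 1 of these genes or their processed copies could not be assigned with certainty, and how the authors treated such reads is not given in the sources used here.

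Members were shorter by exon length than most genes tested, and the median change of short genes lay lower in both RIP groups. The median exon length was 1578 bases for the 92 members tested in IgG RIP, from 360 (Cox8b) to 8086 bases (Ndufs1), against 3313 bases for all genes. Across all 22342 genes, log2 exon length and log2 fold change in IgG RIP had a Pearson r of 0.17, and across the 92 members 0.15; genes are not independent replicates. With genes split by exon length into 5 groups of equal size, in the shortest group, up to 1368 bases, the median log2 fold change in IgG RIP was -0.21 for all genes and -0.79 for 39 members, of which 22 were lower, against 11.2% of all genes in that group. In the next group, up to 2651 bases, it was -0.10 for all genes and -0.34 for 29 members. Of these members 15 were lower and 5 higher, against 16.9% and 10.3% of all genes in that group. In the third group it was -0.03 for all genes and -0.54 for 13 members, of which 7 were lower, against 19.6% of all genes there. In the fourth group, from 4090 to 6381 bases, the 8 members had a median of 0.08, equal to that of all genes, and in the longest the 3 members had -0.78 against 0.11 for all genes, so the gap did not fade steadily with length. The share of all genes called lower in IgG RIP rose with length, from 11.2% in the shortest group to 24.9% in the longest. The share called higher rose from 3.69% to 38.6%. In CaMKIIβ RIP the medians in the shortest group, up to 1390 bases, were -0.39 for all genes and -0.43 for 38 members, and in the next -0.21 and -0.20 for 28. In the third they were -0.11 and -0.52 for 14 members, of which 4 were lower, against 2.78% of all genes there. In the fourth they were -0.01 and 0.02 for 7, and in the longest -0.00 and -0.80 for 3. Removing the trend on exon length moved the median of all genes by 0.35 in CaMKIIβ RIP and by 0.10 in IgG RIP. It left 3 members lower in CaMKIIβ RIP (Ndufab1, Ndufaf4 and Atp5j) with 3 higher, against 1.39% lower and 5.81% higher of all genes. In IgG RIP it left 42 lower with 13 higher, against 16.5% lower and 22.5% higher of all genes.

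**Figure D5:**
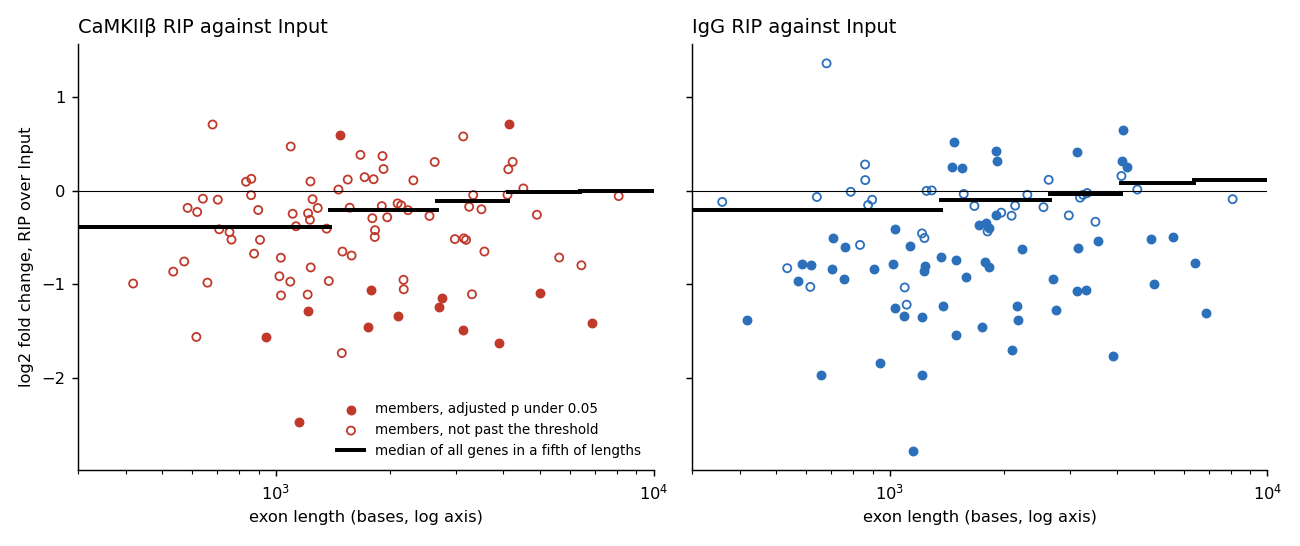
Log2 fold change against Input of each tested member by exon length (log axis), for CaMKIIβ RIP (left) and IgG RIP (right). Filled points passed an adjusted p of 0.05, and black bars are medians of all genes in 5 groups of exon length; in IgG RIP members of the shortest group lay at a median of -0.79, against -0.21 for all genes there.

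Genes that work beside these complexes are given as lists, in which a few members recur. Of 14 complex I assembly factors, those named above included, 7 were lower and 0 higher in IgG RIP, and 2 were lower in CaMKIIβ RIP. Of 32 assembly factors of complexes II to V that were tested, 13 were lower and 3 higher in IgG RIP and 0 passed in CaMKIIβ RIP. Coa6, a copper chaperone of complex IV, fell by 1.91 ± 0.31 (adjusted p = 9.48e-05) in IgG RIP, and Taco1, a translational activator of mitochondrially encoded COX1, rose by 0.65 ± 0.16 (adjusted p = 0.00342). Of 12 electron carriers and partners, 7 were lower and 2 higher in IgG RIP and 2 and 1 in CaMKIIβ RIP. Higd1a, a hypoxia-induced partner of the chain, fell by 1.40 ± 0.13 (adjusted p = 2.30e-07) in IgG RIP and fell by 1.32 ± 0.25 (adjusted p = 0.0232) in CaMKIIβ RIP.

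All 12 tested mRNAs that mitochondrial DNA encodes for the same complexes were lower in IgG RIP and 2, CYTB and COX1, in CaMKIIβ RIP. CYTB was at 1226 ± 13.2 CPM in Input (SD, n = 2), 144 ± 48.96 CPM in CaMKIIβ RIP (n = 3) and 255 ± 7.81 CPM in IgG RIP (n = 3). The citric acid cycle list, by contrast, went both ways. Of its 16 enzymes, 6 were higher and 5 lower in IgG RIP. Ogdh, of the oxoglutarate dehydrogenase complex, rose by 1.06 ± 0.07 (adjusted p = 1.05e-08) in IgG RIP and rose by 0.87 ± 0.14 (adjusted p = 0.0160) in CaMKIIβ RIP. Of 11 regulators of mitochondrial biogenesis, 5 were higher and 1 lower in IgG RIP, and Pprc1, a coactivator related to PGC-1, rose by 0.88 ± 0.11 (adjusted p = 7.98e-06). In CaMKIIβ RIP 1 of them, Polrmt, the mitochondrial RNA polymerase, was higher (0.77 ± 0.16). The difference between these lists and the members was not tested.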

How the data were processed

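RNA of 8 libraries was analysed: 3 CaMKIIβ RIP, 3 IgG RIP and 2 Input. The authors deposited whole-number counts per gene, with exon coordinates and exon length per the file headers. Per the submitters' processing notes, the tools were STAR 2.7.3a, featureCounts 2.0.1, cutadapt 2.10 and Trim Galore 0.6.4, and the build GRCm38.p6 (mm10). How strand, multimapping reads and duplicates were treated, and which annotation was counted, is not given in the sources used here. Exons of 34 members overlap exons of another gene (over 10% of their bases for 13), and such reads cannot be told apart without strand. Pseudogene copies can also share reads.

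Gene symbols came from RefSeq by position: a shared span of at least 0.5 with a mutual best partner, and otherwise a shared end within 150 bases. This named 34766 of 55401 genes, holding 97.2% of counts, and matched 92 members by span and 3 by shared end (Cox7a2, Ndufa4l2 and Atp5g1). These matching thresholds were set with the table in view.

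Each comparison of 2 groups was fitted with edgeR 4.0.16 (R 4.3.3): filterByExpr (minimum count 10, minimum total 15), TMM scaling and the quasi-likelihood test on all genes, called at a Benjamini-Hochberg adjusted p under 0.05. Alternatives were other scalings and count filters, DESeq2 1.42.0, limma-voom 3.58.1, 1 fit of all libraries, a replicate block, removal of a loess trend on exon length (span 0.5) and leaving out each library. The procedure was tested on simulated data. Total counts of 17273957 to 28138289 per library set the counting error. Members named were, per complex and comparison, up to 4 called in each direction by size of change, or without calls the highest and the lowest change (average log2 CPM of at least 1), the highest and lowest per kilobase in Input, paralog sets, complex II, the longest and shortest member, members behind a count, and up to 3 called genes of other lists. The members and lists were chosen with earlier results of these data known.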

Additional observations from a re-analysis of the deposited data

How the results depend on the processing

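The comparison of CaMKIIβ RIP with IgG RIP called 0 members under every alternative run, the replicate block included. In CaMKIIβ RIP against Input, the count of higher members (2) was 1 with library size alone, and leaving out 1 library gave 0 to 5. The count of lower members (12) was 19 with library size alone, 21 without a count filter, 23 with DESeq2, 22 with limma-voom, 24 with all 8 libraries in 1 fit and 3 with the exon length trend removed, and leaving out 1 library gave 0 to 25. In IgG RIP against Input, higher members (9) were 3 with library size alone and 2 with all 8 libraries in 1 fit, and leaving out 1 library gave 6 to 11. Lower members (49) stayed within 1.5 times under all alternatives run. Replicate numbers recur across groups, but the labels do not say that they pair libraries, and same-numbered libraries had correlations of deviations from -0.08 to 0.11. With the replicate number as a block, CaMKIIβ RIP had 4 members higher and 29 lower than Input, against 8.99% and 10% of all genes. IgG RIP had 10 and 50, against 20.6% and 19.3% of all genes. The share of all genes lower in CaMKIIβ RIP moved as well. It was 3.4% in the main fit, 10% with the block and 6.16% with library size alone. It was 2.94% without a count filter, 6.09% with DESeq2, 5.91% with limma-voom, 7.63% with all 8 libraries and 1.39% with the length trend removed. Of the values of single named members under alternatives, 1261 stayed on their side of the threshold. A call was lost by 71, gained by 34 and reversed by 0. Changes without a call could switch sign, as for Ndufs1 in CaMKIIβ RIP against Input (-0.06, and 0.04 with the length trend removed). In CaMKIIβ RIP against IgG RIP no gene of the whole table passed in any run, so no call there could be lost. The cause of these movements was not tested. Depth limits the isoforms near 0 counts, and 2 Input libraries limit both comparisons with Input.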
